A study of Mus musculus and Homo sapiens with 40 samples.

Results

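H3K27ac, the acetylation of histone H3 that marks active promoters and enhancers, was compared between HPC-7 cells carrying the p30 or the p42 isoform of the transcription factor CEBPA, both after exposure to LPS. HPC-7 cells are mouse hematopoietic progenitors grown as a line. Each line carries 1 isoform fused to an ERT2 fragment, introduced by retroviral transduction, so that line and isoform cannot be told apart. The study's methods use 4-hydroxytamoxifen to move the fusion protein into the nucleus, whereas the labels of these samples do not name it. LPS, a component of the bacterial cell wall, was given at 100 ng/mL for 2 h to both lines. Each group had 3 samples with 3 matched inputs, and the authors called 1 peak list per group on the pooled samples. The members described here are the regions formed by merging the peaks of both lists that touch by 1 bp or more on chromosomes 1 to 19 and X. They numbered 154046, from 107114 peaks in p42 cells and 142385 in p30 cells. The whole series holds 40 samples and 11 peak lists, which also cover untreated cells (no LPS), H3K4me1, the CEBPA fusion proteins and 1 human line that was not used here. In bulk samples, fewer marked cells and less acetylation per cell cannot be told apart. With 1 list per group there was no spread between replicates, so no difference between the lines could be tested, and the intervals below cover counting error only.

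CEBPA is a basic leucine zipper factor required for the formation of granulocytes. Its full-length isoform, p42, carries an N-terminal transactivation domain that the shorter isoform, p30, translated from an internal start, lacks in large part. Both isoforms keep the DNA-binding domain. LPS is sensed by TLR4 with its co-receptor CD14, and signals through MYD88 and TICAM1 to NF-kB, AP-1 and interferon regulatory factors, which act on enhancers that lineage factors such as PU.1 and C/EBP proteins have opened.

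The sequences of the strongest regions found in 1 list only, or shifted most between the lists, are shown first, because the p42 and p30 regions differ in whether they lie at CEBPA binding sites. Each is a window of 160 bases on the plus strand of GRCm39. Where an anti-CEBPA peak of p42 cells overlapped the region, the window is centred on that peak's summit, otherwise on the H3K27ac summit. Motif matches are therefore not comparable between windows centred in these different ways. Capitals mark matches to any of the 11 consensus motifs searched on both strands, such as the C/EBP consensus TTGCNNAA. The windows shown are those of the leading regions of 1 list, and of the shared region with the greatest shift each way. Windows over an annotated untranslated region and those at Gm3476, Sall1 and Mtmr9 were not printed. Of the windows left out, that at Mtmr9 (p30 only) held a C/EBP consensus match. So did those at Dlst and the Nfil3 promoter (p42 only), while those at Gimap8, Gm3512 and Gm2974 (p30 only) held none. The first 6 windows come from regions in p42 only and the last from the shared region with the greatest shift toward p42.
Sipa1l1 intron, chr12:82433884-82434043: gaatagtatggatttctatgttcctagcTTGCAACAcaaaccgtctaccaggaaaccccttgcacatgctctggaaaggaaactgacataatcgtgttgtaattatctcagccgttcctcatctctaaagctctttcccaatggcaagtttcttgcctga
Rflnb upstream, chr11:75924685-75924844: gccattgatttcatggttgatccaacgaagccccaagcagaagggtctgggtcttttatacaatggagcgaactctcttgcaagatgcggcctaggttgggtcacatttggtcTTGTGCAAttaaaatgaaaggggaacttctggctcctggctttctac
Hal start, chr10:93324434-93324593: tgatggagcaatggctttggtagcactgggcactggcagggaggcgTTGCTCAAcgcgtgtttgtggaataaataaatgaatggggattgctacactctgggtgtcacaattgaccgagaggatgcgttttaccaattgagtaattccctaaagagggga
Klb intron, chr5:65514402-65514561: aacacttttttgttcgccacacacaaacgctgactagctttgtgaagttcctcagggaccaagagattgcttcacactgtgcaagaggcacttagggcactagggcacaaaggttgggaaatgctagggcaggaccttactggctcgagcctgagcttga
Gda promoter, chr19:21418408-21418567: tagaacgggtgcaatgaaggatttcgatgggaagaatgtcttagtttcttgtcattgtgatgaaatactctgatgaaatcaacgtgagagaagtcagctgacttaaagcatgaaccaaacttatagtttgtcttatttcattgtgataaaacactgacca
Ltf promoter, chr9:110866799-110866958: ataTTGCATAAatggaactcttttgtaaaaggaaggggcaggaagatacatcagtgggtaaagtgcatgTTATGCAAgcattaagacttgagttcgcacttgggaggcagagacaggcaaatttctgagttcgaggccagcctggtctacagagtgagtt
Nfil3 upstream, chr13:53139799-53139958: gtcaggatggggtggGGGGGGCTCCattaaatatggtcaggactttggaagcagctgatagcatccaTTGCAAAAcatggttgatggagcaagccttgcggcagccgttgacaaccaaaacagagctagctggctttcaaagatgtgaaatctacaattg

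Of these 7 windows, 4 held a C/EBP consensus match, the Sipa1l1 window held the related TGTTGCAA on the minus strand, and the Klb and Gda windows held no match, although their anti-CEBPA peaks were 34.3-fold and 23.5-fold over input. The Nfil3 window also held a match to the NF-kB consensus. Among all anti-CEBPA peaks of p42 cells within p42-only regions, 43.6% held the C/EBP consensus within 100 bases at the summit (567 of 1299; Wilson 95% interval 41.0 to 46.4%), against 41% within shared regions, 40.7% within p30-only regions and 45.3% of those outside any H3K27ac region. The next 3 windows come from regions in p30 only (Sel1l and Il1r1) and the shared region with the greatest shift toward p30 (Ccr9). None of these 3 regions was overlapped by an anti-CEBPA peak of p42 cells, unlike 2 regions with lesser shifts toward p30, at Cdc7 and Bicdl1. The Ccr9 window held a C/EBP consensus match.
Sel1l upstream, chr12:92857629-92857788: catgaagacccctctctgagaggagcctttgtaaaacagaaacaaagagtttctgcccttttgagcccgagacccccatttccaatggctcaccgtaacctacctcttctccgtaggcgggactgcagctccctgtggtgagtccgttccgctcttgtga
Il1r1 upstream, chr1:40302741-40302900: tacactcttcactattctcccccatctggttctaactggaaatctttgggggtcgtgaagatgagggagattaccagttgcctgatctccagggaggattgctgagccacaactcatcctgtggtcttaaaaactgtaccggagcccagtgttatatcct
Ccr9 upstream, chr9:123584080-123584239: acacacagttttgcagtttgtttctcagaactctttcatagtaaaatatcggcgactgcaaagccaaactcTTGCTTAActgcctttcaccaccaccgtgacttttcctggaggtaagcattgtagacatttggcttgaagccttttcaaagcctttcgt

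The p30 list was the longer of the pair also without LPS, with 139190 peaks against 129345. Read depth is not known from peak lists, and the number of weak peaks a list holds depends on it. The identity of the line was checked by promoter marks. All 7 hematopoietic progenitor markers examined, which included Kit, Cd34, Gata2 and Runx1, carried a peak over their promoter in both lists. None of the 7 liver and neuron markers did in either list. Of 8 T and B cell markers, Cd3d was marked in both lists and Cd4 in p30 only, the latter by a 207 bp peak at rank 110514.

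Nearly all strong H3K27ac regions were shared between the lines. Of the 154046 regions, 73561 were in both lists (47.8%), 60741 in p30 only (39.4%; 39.2 to 39.7%) and 19744 in p42 only (12.8%; 12.7 to 13%). Seen from each list, p30 peaks overlapped 81.6% of the p42 peaks, and p42 peaks overlapped 57.3% of the p30 peaks. When each list was reduced to its 107114 best-ranked peaks, the classes were closer in size, with 66429 shared regions, 34490 in p30 only and 27009 in p42 only. At equal numbers, 99.9% of the strongest 10% of p42 peaks were overlapped by a p30 peak and 42.9% of the weakest 10%. For p30 peaks the corresponding shares were 100% and 34.6%. Regions of 1 list were weak: their best peak stood at a median of 70.9% of the way down the p30 list and 76.8% of the way down the p42 list. Only 4 p30-only and 4 p42-only regions had a peak in the strongest 10% of their own list. A stricter reading, in which the region passed q < 1e-05 in its own list and had no peak in the other, kept 18682 p30-only and 5429 p42-only regions.

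**Figure D1:**
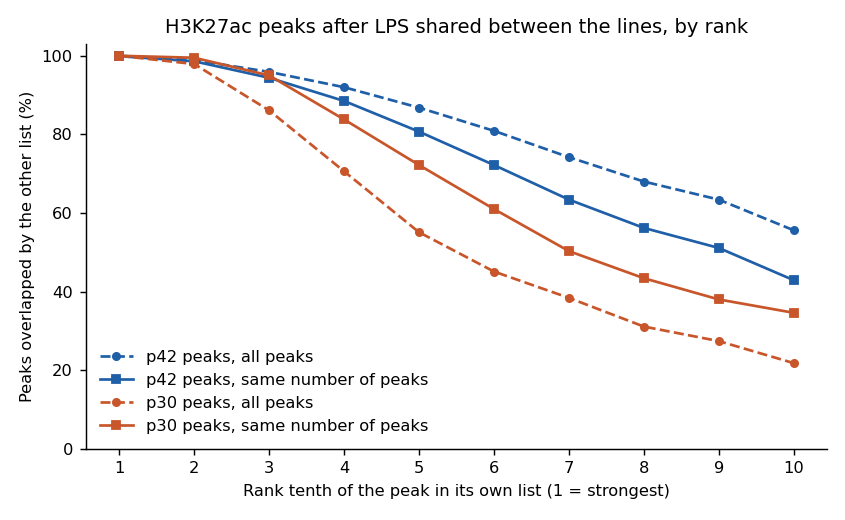
Share of H3K27ac peaks after LPS that the other line's list overlaps (vertical axis, %), by 10 classes of rank in their own list (horizontal axis, 1 is strongest), for p42 (blue) and p30 (orange), with all peaks (dashed) and at equal peak numbers (solid). At equal numbers the shares drop from 99.9 to 42.9% for p42 peaks and from 100 to 34.6% for p30 peaks.

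The regions of 1 list were also narrow. Shared regions had a median width of 939 bp, p30-only regions of 257 bp and p42-only regions of 242 bp. Of p30-only regions 40.4%, and of p42-only regions 41.4%, were within 1 kb of a shared region. Peaks of p42 cells covered 95.4 Mb and those of p30 cells 121 Mb, of which 80.3 Mb was common. That common part was 84.2% of the p42 bases and 66.6% of the p30 bases. Within shared regions p30 peaks covered more bases than p42 peaks in 65.5% and fewer in 34.2%, with medians of 822 and 662 bp. The p30 list held 2209 peaks of 5000 bp or more, and the p42 list 1614. Promoters, the stretch between 1000 bp before and 100 bp after a protein-coding start, held the strongest summit in 9.61% of shared, 2.56% of p30-only and 2.5% of p42-only regions.

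Regions of p42 only lay at CEBPA binding sites more often than regions of p30 only. The anti-CEBPA and anti-ER lists, the latter raised against the ERT2 part of the fusion, were not used to form the regions. Each comes from 1 sample labelled as not treated, so binding was mapped without LPS. HPC-7 cells also carry their own Cebpa gene, and anti-CEBPA does not separate its product from the fusion protein. Within 500 bp of the summit, 12.7% of p42-only regions held an anti-CEBPA peak of p42 cells (2512 of 19744; 12.3 to 13.2%), against 2.32% of p30-only regions (1411 of 60741; 2.21 to 2.45%). Shared regions weighted to the same ranks and the same promoter share held 4.29% and 7.88%. So p42-only regions had more of these sites than shared regions of their rank, and p30-only regions fewer. The other 3 lists of binding sites gave the same order. Anti-CEBPA peaks of p30 cells were found in 6.83% of p42-only and 1.8% of p30-only regions, beside 3.28% and 5.15% in shared regions of equal rank. Anti-ER peaks of p42 cells were found in 11.8% and 1.36%, and those of p30 cells in 10.8% and 2.86%. In the strict classes the gap widened to 27.4% of p42-only against 2.66% of p30-only regions. Most sites lay elsewhere: 75% of the anti-CEBPA peaks of p42 cells overlapped no H3K27ac region of either list, 21.1% overlapped a shared region and 2.74% a p42-only region.

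The same contrast was present among shared regions. Strength was expressed as a percentile among shared regions within each list, ranked by the best peak's −log10 p, so that 100 is the strongest. Distal shared regions that stood 25 points or more higher in p42 held an anti-CEBPA peak of p42 cells in 26.4% (1451 of 5488; 25.3 to 27.6%), and those 25 points or more higher in p30 in 2.67% (141 of 5277; 2.27 to 3.14%). Distal shared regions that differed by less than 25 points, weighted to the same strengths, held one in 8.42% and 7.58%. For anti-CEBPA peaks of p30 cells the shares were 17.1% and 2.92%. H3K4me1, a mark of enhancers, was mapped in untreated cells and showed the opposite pattern in p30 cells, with peaks at 72.7% of the regions higher in p30 and 53.8% of those higher in p42. In p42 cells the shares were 59.1% and 59.6%.

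**Figure D2:**
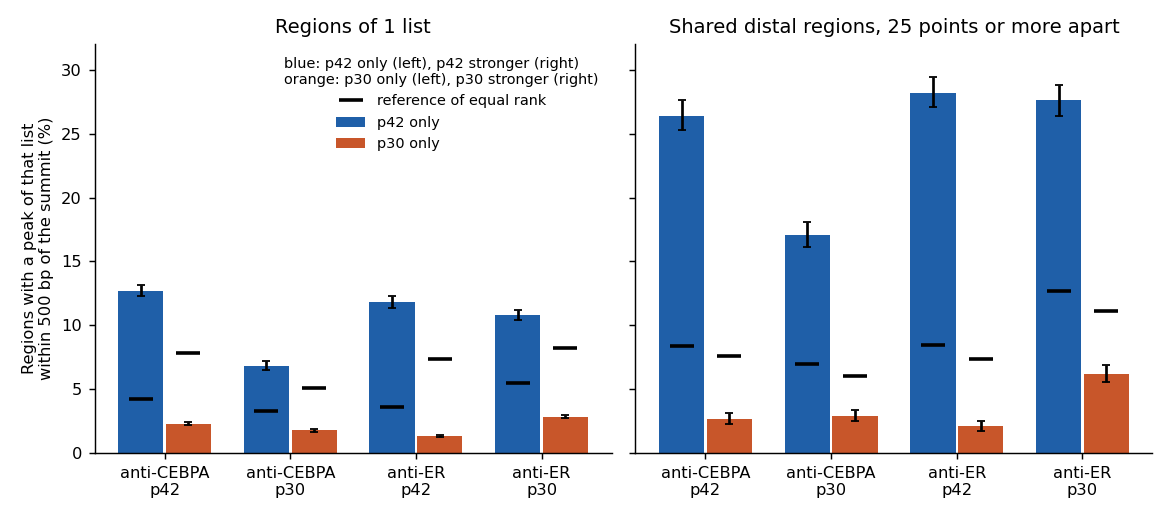
Share of H3K27ac regions (vertical axis, %, with Wilson 95% intervals) that hold a peak of each anti-CEBPA or anti-ER list (horizontal axis) within 500 bp of the summit. Left, regions of 1 list; right, shared distal regions 25 points or more apart; blue is the p42 class, orange the p30 class, and black dashes give shared regions of equal rank or strength. All 4 lists show p42 classes above their reference and p30 classes below it.

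Most regions of 1 list had a peak of that line without LPS within 500 bp of their summit, a window wider than most of these regions. Counting only overlap with the region itself, the shares were 52.1% of p42-only and 51.1% of p30-only regions. A peak of the same line in untreated cells lay within the window of 66.4% of p42-only regions (65.7 to 67.0%) and 64.7% of p30-only regions (64.3 to 65.1%), compared with 82.5% and 81% of shared regions of equal rank. Regions absent from both untreated lists numbered 4422 in p42 only (22.4%) and 16098 in p30 only (26.5%), beside 2.97% of shared regions. Those present in untreated p42 and absent in untreated p30 numbered 5126 in p42 only (26%), and these carried an anti-CEBPA peak of p42 cells in 26.4% (25.2 to 27.6%). The 4422 p42-only regions absent from both untreated lists carried one in 8.62% (7.82 to 9.48%). The 14603 p30-only regions present in untreated p30 alone carried one in 1.71% (1.51 to 1.93%), and the 16098 absent from both untreated lists in 2.31%. A peak of the other line without LPS was found for 51.6% of p42-only and 49.5% of p30-only regions.

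Shared regions kept their order on the whole. The strengths in both lists had a Spearman correlation of 0.82 across the 73561 shared regions, a description over regions that come from the same pair of lists. The median absolute shift was 7.88 points over all shared regions and 1.7 points over shared promoter regions. Among the 66492 shared distal regions, 7.94% stood 25 points or more higher in p30 and 8.25% in p42, which is the background for the distal counts of gene lists below. Of the regions 25 points or more higher in p42, 4134 were in all 4 H3K27ac lists. In the untreated lists 75.9% of them were again on the p42 side, with a median shift of -15.9 points against -32.9 points after LPS. Of those higher in p30, 4377 were in all 4 lists, and 74.5% were on the p30 side without LPS, with a median of 12.2 against 33.2 points. Over all 62090 shared regions in the 4 lists, 52% were on the p30 side without LPS.

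The 8 leading regions of p42 only all held CEBPA sites. By rank, the leading distal regions lay in an intron of Sipa1l1 (chr12:82433057-82433952, rank 8854 of the p42 list, 21.5-fold over input), upstream of Rflnb (rank 9291, 20.6-fold), at the start of Hal, which encodes histidine ammonia-lyase (rank 9841, 19.5-fold), and in introns of Klb (rank 10300, 18.6-fold) and Dlst (rank 10725, 16.9-fold). All 5 were also in the untreated p42 list, and only the Dlst region was in the untreated p30 list, at rank 131261. All 5 held anti-CEBPA and anti-ER peaks of p42 cells. The leading promoter regions were at an internal start of Nfil3 (chr13:53130979-53132031, 16.1-fold), at Gda, which encodes guanine deaminase (chr19:21418510-21419293, 14.9-fold), and at Ltf, which encodes lactoferrin of neutrophil granules (chr9:110866739-110867375, 8.6-fold). All 3 held an anti-CEBPA peak of p42 cells. The promoters of Nfil3 and Ltf also held a p30 peak elsewhere, with 8.86-fold and 5.85-fold, so that only Gda among these genes lacked a p30 promoter peak.

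The 8 leading regions of p30 only held no anti-CEBPA or anti-ER peak of either line within 500 bp of the summit. The leading one, near Gm3476 on chromosome 14, was 159 bp wide, and the 50 bases at its summit occur 7 times in the genome, so its reads cannot be assigned with certainty. The next lay at -1041728 bp from the start of Sel1l (chr12:92857447-92857998, rank 11741 of the p30 list, 8.52-fold) and at -2877 bp from a start of Il1r1, the interleukin 1 receptor (chr1:40300825-40304000, rank 12983, 12.3-fold). Others were far upstream of Sall1 (10.4-fold) and upstream of Mtmr9 (12-fold). In untreated p42 cells the Il1r1 region held a peak at rank 58607, while in untreated p30 cells it stood at rank 6843. The leading promoter was that of Gimap8, a GTPase of the immune-associated family (chr6:48624146-48625092, 15.2-fold), which was also in the untreated p30 list and absent from both p42 lists. The next, Gm3512 and Gm2974, are predicted genes on chromosome 14, where near-identical copies could share reads.

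The largest shifts among shared regions followed. Toward p42 the largest was at -3181 bp from Nfil3, a bZIP repressor also called E4BP4 (chr13:53138553-53141875), with strengths of 88.6 in p42 and 4.95 in p30. It was followed by regions at Dlst (86.1 and 5), Abcd2 (82.2 and 1.25), Cracr2a (81.5 and 1.61) and Clasp1 (85.4 and 6.47). All 5 held anti-CEBPA and anti-ER peaks of p42 cells, and 2 held an anti-CEBPA peak of p30 cells. Toward p30 the largest was at -12116 bp from Ccr9, a chemokine receptor of lymphoid progenitors and gut-homing cells (chr9:123582662-123587105), with strengths of 3.63 in p42 and 77.4 in p30. Regions at Cdc7 (1.5 and 71.6), Bicdl1 (10.6 and 80.2), Atf3 (3.14 and 72.5) and Bmp4 (0.909 and 70) followed. Of these 5, only the Cdc7 region held an anti-CEBPA peak within 500 bp of its summit, and an anti-CEBPA peak of p42 cells overlapped the Bicdl1 region farther out. Anti-ER peaks of p30 cells were at 3 of the 5, those at Ccr9, Cdc7 and Bicdl1, against all 5 of those shifted toward p42. An anti-ER peak of p42 cells was at Cdc7 alone. Atf3 encodes an AP-1 related stress factor, and its own promoter carried no peak in either list.

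The loci that the study discusses were followed over 50 kb to either side. At Cxcl10, an interferon-inducible chemokine (ENSMUSG00000034855.14, chr5:92494497-92496748, minus strand), all 8 shared regions were on the p42 side, 5 regions were in p42 only and 0 in p30 only. The promoter itself was weak, with a 453 bp peak of 3.28-fold at rank 60347 in p42, no peak in p30 and none in either untreated list. The large shifts were in a group of distal regions upstream, whose nearest start is that of Art3. At -19231 bp the strengths were 84.2 in p42 and 6.6 in p30, at -19958 bp 79.1 and 32.6, and at -21864 bp 67.9 and 8.74. These 3 regions held anti-CEBPA peaks of both lines, and had a peak in untreated p42 and none in untreated p30. The region at -23713 bp, also past 25 points, had 61.1 and 33.6, held no anti-CEBPA peak and was in both untreated lists. The regions at -4745, -26479 and -32930 bp differed by 7 points or less, with shifts of -6.99, -3.75 and -1.4 points. A strong region at 39063 bp past the start also held anti-CEBPA peaks of both lines, with strengths of 92.3 and 88.8 and a shift of -3.49 points.

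At Fos, the founding AP-1 member (ENSMUSG00000021250.15, chr12:85520658-85524047), 9 of 14 shared regions were on the p42 side. The promoter region was among the strongest in both lists, with strengths of 98.9 and 97.3 and enrichments of 67.9-fold and 64-fold. The largest difference was at 16401 bp past the start, with 90.4 in p42 and 58.4 in p30, and at -4642 bp the strengths were 92.1 and 77. Both of these held anti-CEBPA peaks of both lines, as did the region at 50961 bp, which had a shift of 0.227 points. The regions more than 40 kb past the start were on the p30 side, for example 12.3 in p42 and 37.3 in p30 at 40338 bp. At Gadd45a, a growth arrest gene, 18 of 22 shared regions were on the p42 side, and 7 of them by 25 points or more. The largest was at 9175 bp past the start, CEBPA-bound in both lines, with 69.1 and 8.58. At Cebpb, which encodes another C/EBP factor, 16 of 24 shared regions were on the p42 side and none moved by 25 points either way. Nfil3, chosen after its values were seen, had 8 of 10 shared regions on the p42 side and 6 regions in p42 only.

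**Figure D3:**
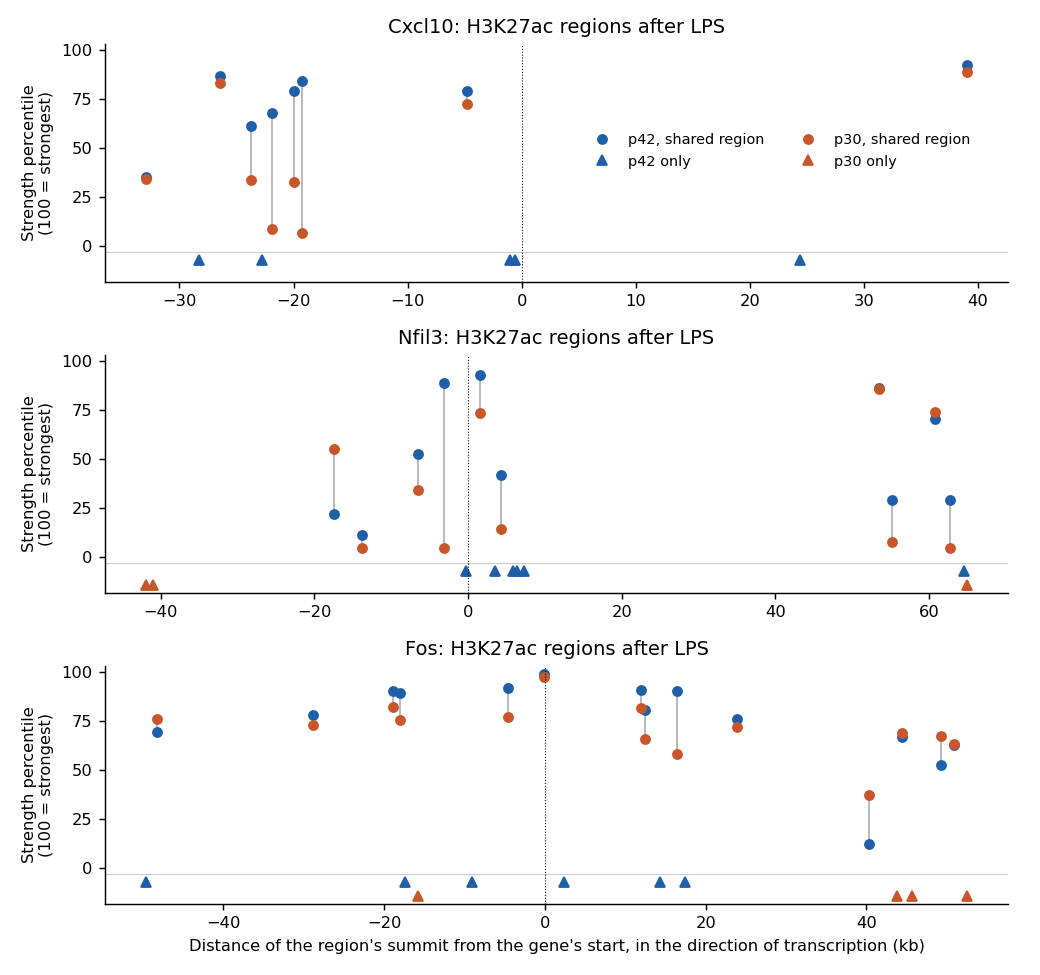
Strength percentile of shared H3K27ac regions after LPS (vertical axis, 100 is strongest) in p42 (blue) and p30 (orange) cells against the distance of the summit from the gene's start (horizontal axis, kb), at Cxcl10, Nfil3 and Fos. Grey lines join the values of 1 region, and triangles below the line are regions in 1 list only, whose height carries no value. Around Cxcl10 all shared regions are higher in p42, with the widest gaps near -20 kb, while the Fos promoter region has a shift of -1.58 points.

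Most marked promoters were in both lists. Of 21408 protein-coding genes, 10853 had a promoter peak in both lists, 462 (2.16%) in p30 only and 131 (0.612%) in p42 only. For gene lists, promoter strength was a percentile among these 10853 promoters only, so values are lower than on the scale of all shared regions. A shift of 10 points or more was found toward p30 in 7.8% and toward p42 in 8.41% of them. By any amount, however small, 5410 of them stood higher in p30 and 5432 in p42, the background for counts of promoters by side below. With equal peak numbers, 28.1% of distal regions were in p30 only and 22.1% in p42 only. The genes named below follow a fixed rule, except for others of a list past 10 points, which are named with their values, after these were seen, so that the counts can be followed.

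Neutrophil and macrophage effectors leaned to p42 in promoters and enhancers alike. Of 21 genes, 11 had a promoter peak in both lists, and 9 of these stood higher in p42. Past 10 points were Camp, which encodes the cathelicidin of neutrophil granules (strength 31.8 in p42, 2.02 in p30), Mpo, myeloperoxidase (74 and 56), and also Elane (shift -14.5) and Prtn3 (shift -11.9), both granule proteases. None of the 11 moved 10 points toward p30. The median promoter shift of the list was -4.42 points after LPS and -4.75 points without it. Mpo had a shift of -28.3 points in the untreated lists, where the Camp promoter held a peak in p42 only. S100a8, a calcium-binding alarmin, had a promoter peak in p42 only, with and without LPS, of 4.92-fold after LPS. Of 69 shared distal regions nearest to these genes, 17 (24.6%) stood 25 points or more higher in p42, against 8.25% of all shared distal regions, and 3 (4.35%) in p30, against 7.94%. With equal peak numbers, 33.6% of 113 distal regions were in p42 only and 13.3% in p30 only, against 22.1% and 28.1% of all distal regions.

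Genes that sense LPS showed their largest shifts toward p42. Of 21 promoters of the LPS receptor and Toll-like list in both lists, 4 stood 10 points or more higher in p42 and 1 in p30. Myd88, the main TLR adaptor, had strengths of 70.2 in p42 and 23.2 in p30, with peaks of 3483 and 875 bp. Without LPS its shift was -0.185 points, with peaks of 3272 and 3044 bp. Only the p30 peak after LPS was narrow. With promoters of 2500 bp to either side of the start, the Myd88 shift after LPS was -1.93 points. Irak3, an inhibitor of IRAK signalling, had 52.5 and 14.5, and its shift without LPS was -34.9 points. Cd14 (shift -37.6) and Tlr4 (shift -10.9), which encode the LPS co-receptor and receptor, were on the p42 side, and Ticam1, the other adaptor, was on the p30 side with a shift of 11.9 points, or 6.35 with the wider promoters. Of 114 shared distal regions of this list, 8.77% stood 25 points or more higher in p42 and 5.26% in p30. At equal numbers, 30.6% of 216 distal regions were in p30 only and 20.8% in p42 only, against 28.1% and 22.1% of all distal regions.

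Shared distal regions of cytokine and chemokine genes stood higher in p42 more often than in p30. Of 130 shared distal regions nearest to inflammatory cytokine genes, 16 (12.3%) stood 25 points or more higher in p42 and 6 (4.62%) in p30. For chemokine genes these were 8 of 59 (13.6%) and 1 (1.69%). Regions of 1 list had similar shares on both sides, but the p30-only shares were below that of all distal regions. At equal peak numbers, 20.4% of 201 distal regions of cytokine genes were in p30 only and 20.9% in p42 only. For chemokine genes the shares were 21.4% and 20.4% of 98, against 28.1% and 22.1% of all distal regions. Promoters of the cytokine list went both ways, with 3 of 17 past 10 points toward p42 and 2 toward p30. Osm, encoding oncostatin M, had strengths of 64.6 and 36.1, Il23a had 31.2 and 7.07, and Il6 had a shift of -11.6 points. The shifts of Osm and Il23a without LPS were -25.8 and -8.09 points. Lta had 8.84 in p42 and 85.4 in p30, where a single p30 peak of 8721 bp also covered the promoter of its neighbour Tnf. With promoters of 2500 bp to either side, the Lta shift of 76.5 points became 3.3. Tnf itself had 82.1 and 85.4. Ebi3 (shift 17.7) was the other gene on the p30 side, and the Il10 promoter was in p30 only by a 165 bp peak at rank 141505. Among chemokines, Ccl4 had 50.3 and 22.2 and Ccl9 a shift of -17.1 points, and no promoter moved 10 points toward p30. The Ccl4 shift without LPS was -12.9 points. Pf4 had a shift of 6.89 points, and the Cxcl5 promoter was in p30 only, at rank 42841.

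NF-kB genes lay the other way. All 17 subunits and inhibitors had a promoter peak in both lists, and 14 stood higher in p30. Those past 10 points were inhibitors and regulators of the pathway, with Tnip3 at 20.5 points, Tnfaip3 at 16.9, Cyld at 12.1, Nfkbia at 10.2 and Traf1 at 10.1, while Nfkbib was past it toward p42 at -12.7 points. The Nfkbib value became 13.9 points when promoters were taken as 2500 bp to either side of the start. Tnfaip3, which encodes the deubiquitinase A20, had peaks of 4065 bp in p42 and 10423 bp in p30. Nfkbiz, an inducible IkB protein, had strengths on the p42 side with a shift of -9.59 points. Their 190 shared distal regions were near the background in both directions, with 7.37% higher in p42 and 7.89% in p30.

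AP-1 and immediate early genes did not share 1 direction. Among the 15 AP-1 promoters in both lists, Fos (-11.9), Fosb (-10.5) and Jdp2 (-10.3) were past 10 points toward p42 and Jun (18.6) toward p30, and Fosl2 had a shift of 8.86 points. Without LPS the shifts of Fos and Fosb were -0.463 and -0.583 points. Among 19 immediate early genes and MAPK phosphatases, Egr1 (28.5), Ier5 (23.5), Dusp5 (17.5), Zfp36l2 (15.7) and Dusp6 (10.4) were past 10 points toward p30, and Myc (-13.8) and Klf2 (-12.2) toward p42. The Egr3 promoter was in p30 only after LPS, with a peak of 2761 bp and 25.9-fold, although both untreated lists held it. That peak, at rank 8405, ranked above every p30-only region, the best of which was at rank 11323. It therefore lay in a shared region, whose p42 peak did not reach the promoter. Egr1, a zinc finger factor of the early response, had strengths of 35.3 and 63.8 after LPS and a shift of -5.62 points without it, and its shift after LPS was 47.1 points with promoters of 2500 bp to either side.

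**Figure D4:**
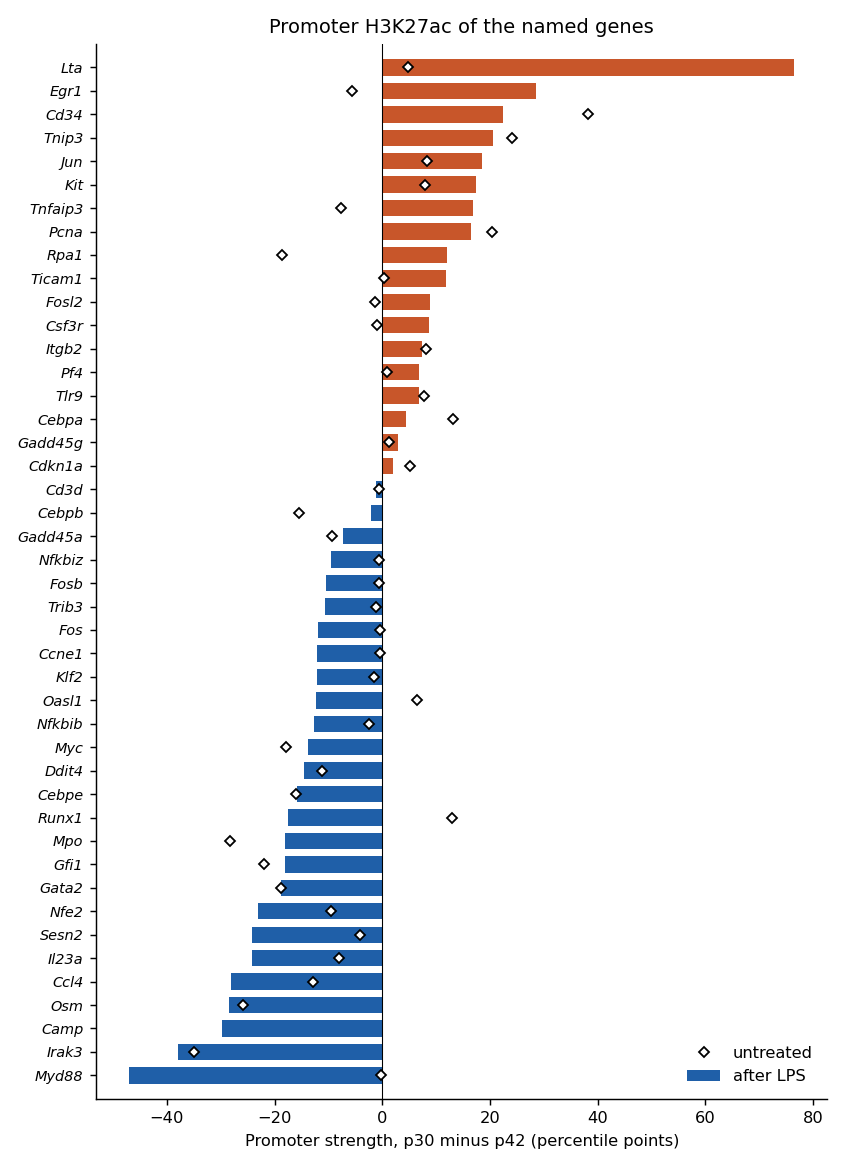
Difference in promoter strength, p30 minus p42 in percentile points (horizontal axis), of genes named by the rule (vertical axis) with a promoter peak in both lists, after LPS (bars; blue toward p42, orange toward p30) and without LPS (diamonds, where both untreated lists held a peak). Myd88 has the largest shift toward p42 (-47) and Lta the largest toward p30 (76.5), against -0.185 and 4.83 points without LPS. With promoters of 2500 bp to either side these shifts were -1.93 and 3.3 points.

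Interferon-stimulated genes had 3 promoters in p30 only and 0 in p42 only. Oasl2 (rank 53398) and Ifit3 (rank 96299) had no promoter peak in either untreated list, while Irf7 (rank 53724, 198 bp wide) had one in both. All 3 were weak peaks. Of 21 promoters in both lists, 15 stood higher in p30, with Isg20 (14.3) past 10 points toward p30 and Oasl1 (-12.3) toward p42. With equal peak numbers, 32.8% of their 183 distal regions were in p30 only and 21.3% in p42 only, against 28.1% and 22.1% of all distal regions.

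Lineage genes divided between both lines. Of the stem and progenitor factors, Cd34 (22.4) and Kit (17.4), which mark progenitors, were past 10 points toward p30, and Gata2 (-18.9) and Runx1 (-17.5) toward p42. Their shifts without LPS were 38.2, 7.94, -18.8 and 13 points. The Gata2 shift was -1.49 points with promoters of 2500 bp to either side. Among myeloid genes, Nfe2 (-23.1), Gfi1 (-18.1) and Il6ra (-15.5) were past it toward p42. The G-CSF receptor gene Csf3r had a shift of 8.58 points. Of 8 promoters of C/EBP and Tribbles genes, 7 stood higher in p42, with Cebpe (-15.9), which acts in late granulocytes, and Trib3 (-10.7) past 10 points, while Cebpa had a shift of 4.46 and Cebpb of -2.07 points. The shift of Cebpa was -15.5 points with promoters of 2500 bp to either side, and that of Cebpe -9.76 when ranked by fold.

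Among 17 stress and growth arrest promoters, 13 stood higher in p42, and Sesn2 (-24.2), Ddit4 (-14.6), Xbp1 (-12) and Bbc3 (-11.2) were past 10 points. None of the 17 moved 10 points toward p30. Their distal regions did not follow, with 11.3% of 133 shared ones 25 points or more higher in each direction. At equal numbers, 28.6% of 227 distal regions were in p30 only and 15.9% in p42 only, against 28.1% and 22.1% of all distal regions. Gadd45a had a shift of -7.28 points, Gadd45g of 2.87 and the cell cycle inhibitor gene Cdkn1a of 1.91. Among DNA replication genes, Pcna (16.4) and Rpa1 (12) were past 10 points toward p30 and Ccne1 (-12.1) toward p42. Itgb2 and Tlr9, also named by the rule, had shifts of 7.35 and 6.85 points.

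Some genes gathered many regions of 1 line. At equal peak numbers, Cdkal1 was the nearest gene of 91 p30-only and 6 p42-only regions, Trappc9 of 81 and 1, Maml3 of 77 and 8, and Bcl11a, a transcriptional repressor, of 60 and 4. Toward p42, Tiam1 was the nearest gene of 69 p42-only and 26 p30-only regions, Atp8b4 of 48 and 1, Runx1 of 47 and 17, and Dock10 of 43 and 12. With all peaks Tiam1 had 50 and 47, Atp8b4 37 and 4, Runx1 31 and 32, and Dock10 35 and 19. Foxp1 was among the first 5 on both sides, with 53 in p30 only and 42 in p42 only. Most are long genes, such as Cdkal1 with 664 kb, whereas Bcl11a spans 96.2 kb. Among 1395 bins of 1 Mb with at least 20 regions, the median share was 26.3% for p30 only and 20.7% for p42 only. The bins richest in p30-only regions were on chromosome 3 from 15 Mb, around Car2, with 34 of 46, on chromosome 4 from 7 Mb, around Tox and Car8, with 31 of 43, and on chromosome 12 from 27 Mb, around Sox11, with 14 of 20. The richest in p42-only regions were on chromosome 1 from 72 Mb, around Xrcc5 and Smarcal1, with 40 of 64, on chromosome 17 from 64 Mb, around Man2a1 and Pja2, with 26 of 44, and on chromosome 1 from 65 Mb, around Pikfyve and Idh1, with 23 of 42. By chromosome, the p42-only share ranged from 15% on X to 26.1% on chromosome 1, and the p30-only share from 23.1% on chromosome 17 to 29.4% on chromosome 11.

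C/EBP motifs were more frequent in p42-only than in p30-only distal regions. In windows of 400 bp at the summit, the C/EBP consensus TTGCNNAA was found in 16.6% of p42-only regions (3193 of 19251; 16.1 to 17.1%) and 12.6% of p30-only regions (7470 of 59188; 12.4 to 12.9%), and in 13.7% of all distal regions. Shared regions weighted to the same GC content and rank held it in 14.6% and 14.7%, differences of 1.96 and -2.12 points. In windows of 200 bp the differences were 0.359 and -1.05 points. The composite consensus TGTTGCAA had 1.31% against 0.846% in matched shared regions for p42 only, and 0.821% against 0.972% for p30 only. That of CEBP and ATF4, TGATGCAA, had 1.16% against 0.843% and 0.821% against 1%. These composites resemble the C/EBP consensus and count overlapping letters.

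PU.1 and RUNX motifs had the opposite order. The PU.1 consensus GAGGAAGT was found in 2.81% of p42-only regions (2.59 to 3.05%), against 4.71% in matched shared regions, and in 4.12% of p30-only regions, against 4.01%. RUNX, TGTGGTTT, had 3.21% against 3.92% in p42 only and 3.61% against 3.37% in p30 only. Shared regions higher in p42 or p30 had the same order, with PU.1 at 4.52% and 6.84%. The AP-1 consensus TGANTCA had 13% against 12.7% in p42 only and 11.6% against 12.9% in p30 only, and its reversed letters, a control, 12% against 11.9% and 11% against 11.4%. In regions higher in p42, AP-1 was at 15.1% against 13.7%. The NF-kB consensus was at 6.19% against 6.88% in p42 only and 7.82% against 7.47% in p30 only. The interferon response element GAAANNGAAA was at 4.98% against 6.07% and 5% against 5.1%. A match is a string of letters and not a measured binding event.

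**Figure D5:**
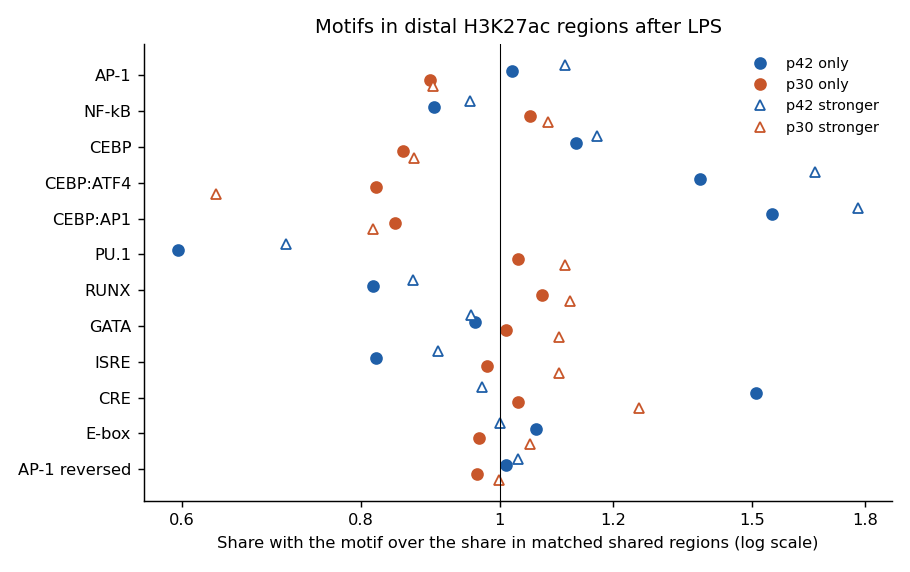
Share of distal H3K27ac regions with each of 12 motifs divided by the share in matched shared regions (horizontal axis, log scale, 1 is no difference), for regions of 1 list (filled circles) and shared regions 25 points or more apart (open triangles) toward p42 (blue) or p30 (orange). C/EBP motifs lie above 1 in both p42 classes and below 1 in both p30 classes, and PU.1 lies below 1 in both p42 classes. The CRE ratio of p42-only regions rests on 66 regions with a match.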

How the data were processed

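H3K27ac ChIP-seq was done on 3 samples per group. According to the study's methods and the submitters' processing notes, the authors trimmed reads with Trim Galore 0.6.6, aligned them to mm39 with Bowtie2, removed duplicates with Picard, and called narrow peaks with MACS2 against input on pooled replicates. The deposited lists give each peak's fold enrichment over input, as a ratio, and −log10 p and −log10 q values. The lowest q in each list was near 0.05. The lists hold no read depth or replicate values.

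From these, peaks on chromosomes 1 to 19 and X were merged and compared with Python 3.11.15, numpy 2.4.6 and pandas 2.3.3. Peaks elsewhere (73 in p42, 92 in p30) were left out. Genes, exons and starts came from GENCODE M39 on GRCm39, the same build as mm39. Ranks within a list were used because they do not need depth. Reference shares were weighted by rank or strength in 10 classes and, for motifs, GC in steps of 2%, with no random draws. Intervals are Wilson 95% intervals. The scripts were tested on simulated lists. No test of p30 against p42 was possible.

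Genes and regions were named by rule: genes discussed by the study, up to 4 of each of 16 gene lists (promoter in 1 list, then the largest shifts), the leading regions of each class, the genes nearest to most regions of 1 line, and the 3 bins richest in them. A few genes that the rule names are not reported here. The members and lists were chosen with earlier results of these data known. Alternatives were other peak numbers, q thresholds, overlap rules, merging distances, ranking, windows and chromosome X left out.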

Additional observations from a re-analysis of the deposited data

Results flagged for a closer look

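A pair of named promoters differed between the lines in opposite directions with and without LPS, by 10 points or more each time. The Runx1 promoter stood higher in p42 after LPS, with a p30 minus p42 shift of -17.5 points, and higher in p30 without LPS, with 13 points. The Rpa1 promoter stood higher in p30 after LPS, with 12 points, and higher in p42 without LPS, with -18.7 points. With 1 pooled list per group these differences were not tested, and the p30 peak over the Rpa1 promoter was 1909 bp wide after LPS and 689 bp without it.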

How the results depend on the processing

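No paired analysis was possible because each list was called on pooled replicates, and leaving out a replicate was impossible for the same reason. Depth is not known from the lists. The order of the classes in CEBPA sites, p42 only above p30 only, and the signs of both C/EBP motif differences held under the alternatives run for them, while class sizes and shares moved.

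With equal peak numbers, 34490 regions were in p30 only. p30 peaks covered more bases in 67.6% of shared regions, 6.69% stood 25 points or more higher in p30 and 6.96% in p42. Untreated peaks of the same line were at 69.8% of p42-only and 70.9% of p30-only regions, and anti-CEBPA peaks of p42 cells at 11.4% and 2.61%. With q < 0.01 the untreated shares were 67.4% and 65.7%. With q < 1e-05, 48107 regions were in both, 29580 in p30 only and 11019 in p42 only. p30 then covered more in 67.1% of shared regions, and 4.73% and 5.5% stood higher in p30 and p42. The untreated shares were 84.4% (p42 only) and 81.6% (p30 only), the anti-CEBPA shares 20.8% and 2.76%, and the C/EBP differences 2.49 and -2.45 points. With the strict classes, 18682 regions were in p30 only and 5429 in p42 only, the untreated shares were 80.1% (p42 only) and 76.4%, the anti-CEBPA shares 27.4% and 2.66%, the C/EBP differences 2.66 and -1.67 points, and 256 genes had a promoter peak in p30 only and 70 in p42 only.

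With reciprocal overlap of 50%, 91936 regions were in p30 only and 56665 in p42 only. p30 covered more in 63.2% of shared regions, and 3.65% and 3.87% stood higher in p30 and p42. The untreated shares were 82.4% (p42 only) and 73.5%, the anti-CEBPA shares 9.81% and 4.92%, and the C/EBP differences 1.12 and -0.821 points. With merging within 500 bp, 34267 regions were in p30 only and 10209 in p42 only. p30 covered more in 68.7%, and 5.49% and 5.79% stood higher in p30 and p42. The untreated shares were 54.8% (p42 only) and 54%, the anti-CEBPA share of p42-only regions 14.2% and their C/EBP difference 2.64 points. Without regions of 1 list within 1000 bp of a shared region, an alternative chosen after seeing the data, 36208 were in p30 only and 11564 in p42 only. The untreated shares were then 58% (p42 only) and 56.9%, the anti-CEBPA share of p42-only regions 15.3% and their C/EBP difference 2.75 points. Counting any overlap with the whole region, the untreated shares were 52.1% (p42 only) and 51.1%, and the anti-CEBPA shares 7.62% and 0.998%.

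In motif windows of 200 bp the C/EBP differences were 0.359 and -1.05 points, and the interval of the first, -0.000278 to 0.735, reached 0. In windows of 1000 bp they were 3.93 and -3.99 points. Ranked by fold, 7.82% and 7.98% of shared regions stood higher in p30 and p42, and by bases covered 6.37% stood higher in p42. Of 276 recomputed promoter shifts of named genes, 269 moved by less than 10 points. Most of the settings behind them only left out weak peaks or chromosome X, which hardly changes ranks among promoters. The moves of 10 points or more all came with promoters of 2500 bp to either side or with ranking by fold. With promoters of 2500 bp to either side of a start, Nfkbib turned from -12.7 to 13.9 points and Cebpa from 4.46 to -15.5, Myd88 went from -47 to -1.93, Lta from 76.5 to 3.3, Gata2 from -18.9 to -1.49, Egr1 from 28.5 to 47.1 and Ticam1 from 11.9 to 6.35. Ranked by fold, Lta had 61.1 points, Cebpe -9.76 against -15.9, Fosl2 1.18 against 8.86 and Gadd45a -0.451 against -7.28. The cause of these movements was not tested.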
